A study of Mus musculus with 16 samples.

Results

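Bex1, Bex4, Tmem35a, Dtx3, Cox6b2 and Ly6a are 6 of the 24091 genes in a table of transcript levels from caecal epithelial cells of C57BL/6 mice. They were picked because their level was more than 2-fold lower with ampicillin than with vehicle and more than 2-fold higher with ampicillin and tributyrin than with ampicillin alone, on the scale of log2(TPM + 1). TPM is a level per unit of transcript length, scaled to a fixed total. Both differences chose the genes, so their own values are given as a description, with no test. All 6 genes passed the minimum used for testing other genes, a mean of at least 1 TPM over the 9 RNA libraries, which 12155 genes passed.

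The RNA libraries fell into 3 groups of 3. In the first group mice drank ampicillin, an antibiotic, at 1 g/L and were given tributyrin, the ester of glycerol with butyrate, by gavage on day 7. The second group, called ampicillin alone here, drank the same ampicillin and received a mock gavage of 25% glycerol, and the vehicle group drank no ampicillin and received the mock gavage. All mice drank Splenda, the sweetener that served as vehicle, at 10 g/L, and the tissue was taken 6 h after gavage. Cells were freed from the caecum with DTT and EDTA and then Dispase, with no sort named in the labels, and the labels give no dose of tributyrin, sex or age. The 7 chromatin and input samples of the series, which come from untreated mice, were not analysed here. Whether each library is from its own animal is not said in the labels, so errors and p-values measure the spread between these libraries, which may be technical.

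None of the 6 genes is best known for a role in the gut lining. They are 6 of 31 named protein-coding genes that passed both thresholds, so their known tissues do not describe that whole set. Bex1 and Bex4 belong to the brain-expressed X-linked family, small adaptor proteins found mainly in neurons and neuroendocrine cells. Tmem35a, also called NACHO, is an endoplasmic reticulum chaperone by which neurons assemble nicotinic acetylcholine receptors. Cox6b2 is the testis isoform of subunit VIb of cytochrome c oxidase, the last enzyme of the respiratory chain, and body cells otherwise use Cox6b1. Dtx3 is an E3 ubiquitin ligase of the Deltex family, which is known for its part in Notch signalling. Ly6a is the surface protein Sca-1, a marker of haematopoietic stem cells that is also found on endothelium and T cells and on intestinal epithelium under repair, and it is inducible by interferon. Butyrate, which gut bacteria make from fibre, feeds the epithelium of the large intestine and inhibits histone deacetylases.

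Bex1 (gene ID 19716, chromosome X, 136213972 to 136215513, mm10) and Bex4 (gene ID 406217, chromosome X, 136138996 to 136140443) lie 73.5 kb apart, and Tmem35a (gene ID 67564, chromosome X, 134295225 to 134305969) lies 1.83 Mb before Bex4. These 3 of 6 genes are on the X chromosome, which carries 2.98% of the genes tested. The 6 are only part of the genes that passed both thresholds, and Bex1 and Bex4 are related neighbours. The share of 3 in 6 therefore cannot be read as enrichment on X. Cox6b2 (gene ID 333182) is at 4751792 to 4753094 on chromosome 7, Dtx3 (gene ID 80904) at 127190373 to 127196498 on chromosome 10 and Ly6a (gene ID 110454) at 74994877 to 74998031 on chromosome 15. Positions span the whole gene, and the values cannot be placed on exons or UTRs. RefSeq promoter windows, 300 bases that end 50 bases into the transcript, in build GRCm38.p6, the same assembly as mm10, matched 4 of the 6 genes. They are shown because Bex1 and Bex4 are nearly the same there, which bears on how their levels can be told apart. Capitals mark matches on either strand to the GC box GGGCGG, the CCAAT box CCAAT and the E-box CACGTG. The windows are chrX:136215464-136215763 on the minus strand for Bex1, chrX:136138746-136139045 on the plus strand for Bex4, chrX:134294975-134295274 on the plus strand for Tmem35a and chr7:4753045-4753344 on the minus strand for Cox6b2.
Bex1: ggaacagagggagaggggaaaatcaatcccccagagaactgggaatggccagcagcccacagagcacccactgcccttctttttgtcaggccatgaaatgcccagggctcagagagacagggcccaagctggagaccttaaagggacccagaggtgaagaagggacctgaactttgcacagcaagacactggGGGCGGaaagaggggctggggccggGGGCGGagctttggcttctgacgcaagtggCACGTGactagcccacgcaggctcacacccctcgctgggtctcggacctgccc
Bex4: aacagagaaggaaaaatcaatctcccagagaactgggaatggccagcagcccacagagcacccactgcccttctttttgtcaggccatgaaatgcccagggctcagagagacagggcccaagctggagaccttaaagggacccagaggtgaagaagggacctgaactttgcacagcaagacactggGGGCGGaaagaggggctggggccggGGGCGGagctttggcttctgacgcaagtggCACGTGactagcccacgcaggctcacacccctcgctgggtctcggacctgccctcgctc
Tmem35a: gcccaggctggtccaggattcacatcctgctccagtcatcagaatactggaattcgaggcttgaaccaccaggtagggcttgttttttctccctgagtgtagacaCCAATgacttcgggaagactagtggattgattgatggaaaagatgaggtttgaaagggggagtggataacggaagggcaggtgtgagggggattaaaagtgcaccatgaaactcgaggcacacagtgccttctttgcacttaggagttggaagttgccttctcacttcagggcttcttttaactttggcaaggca
Cox6b2: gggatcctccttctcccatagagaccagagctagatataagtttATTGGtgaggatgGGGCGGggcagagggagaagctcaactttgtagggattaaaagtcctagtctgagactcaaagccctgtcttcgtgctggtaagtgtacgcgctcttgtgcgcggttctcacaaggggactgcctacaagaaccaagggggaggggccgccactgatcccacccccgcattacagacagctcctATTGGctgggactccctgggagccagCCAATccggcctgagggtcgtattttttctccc

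The Bex1 and Bex4 windows matched at 288 of 294 aligned bases, or 98.0%, when shifted by 6 bases, with 1 identical stretch of 271 bases. The other pairs of windows matched at 29.5% to 33.8% of bases. The stretch runs on past the first transcribed base of Bex1, where 50 of 50 bases were the same as in Bex4. The start site of Bex4 lies 6 bases further along that stretch. Reads that lie within the bases transcribed in both cannot be assigned to 1 gene, so their division between Bex1 and Bex4 is uncertain. The rest of the transcripts was not compared, so how far this affects the levels is not known.

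Bex1 and Bex4 each held 2 GC boxes and 1 E-box, and the E-box of Bex1 spans its first transcribed base. Cox6b2 held 1 GC box and 3 CCAAT boxes, and Tmem35a held 1 CCAAT box and no GC box. A GC box was found in 35.7% of the 32851 windows in the table, a CCAAT box in 37.4% and the E-box in 7.15%. No window of the 4 held the TATA box TATAAA (13.6% of all windows), the interferon-stimulated response element (3.44%), the gamma-activated site TTCNNNGAA (8.30%) or TTCAGCACC (0.371%), the left end of the site of REST, a repressor of neuronal genes. Cox6b2 had 10 CpG dinucleotides in its window, Bex4 had 9, Bex1 had 8 and Tmem35a had 4. A match to a motif is a description of these letters, not evidence of a factor.

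**Figure D1:**
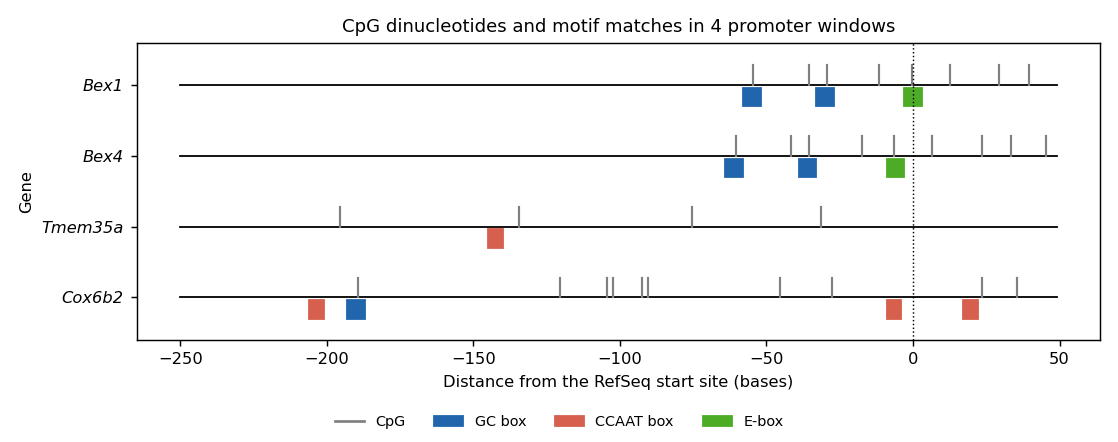
CpG dinucleotides (grey ticks) and motif matches (coloured boxes) in the promoter windows of Bex1, Bex4, Tmem35a and Cox6b2, by distance in bases from the RefSeq start site, which is at 0. Bex1 and Bex4 share 2 GC boxes and 1 E-box at the same spacing, while Tmem35a has 1 CCAAT box and 4 CpG dinucleotides.

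Bex1 had 16.0, 16.7 and 19.1 TPM with ampicillin and tributyrin, 4.62, 5.62 and 5.73 TPM with ampicillin alone and 20.3, 17.6 and 21.0 TPM with vehicle. Every ampicillin library was below every library of the other groups, and the tributyrin and vehicle libraries overlapped. The difference in log2(TPM + 1) was -1.71 ± 0.10 (SE) for ampicillin against vehicle and 1.53 ± 0.10 for tributyrin against mock gavage. In mean TPM, the level with tributyrin was 87.8% of that with vehicle and the level with ampicillin alone was 27.1%. In bulk samples, fewer cells of a type and less RNA per cell cannot be told apart.

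Bex4 had 3.06, 5.36 and 4.19 TPM with tributyrin, 0.907, 1.01 and 1.09 TPM with ampicillin alone and 6.49, 4.27 and 5.86 TPM with vehicle. The ampicillin libraries were again lowest, close to 1 TPM, and the other groups overlapped. Its log2 differences were -1.69 ± 0.18 with ampicillin and 1.36 ± 0.18 with tributyrin. Together Bex1 and Bex4 came to 21.5 ± 2.19 TPM with tributyrin, 6.32 ± 0.698 TPM with ampicillin alone and 25.2 ± 2.86 TPM with vehicle (SD, n = 3 each), so the order of the groups does not rest on how reads were divided between them. The ratio of Bex1 to Bex4 was 3.12 to 5.22 with tributyrin, 5.09 to 5.58 with ampicillin alone and 3.13 to 4.13 with vehicle.

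Tmem35a had 4.97, 6.53 and 6.62 TPM with tributyrin, 0.704, 0.478 and 0.574 TPM with ampicillin alone and 3.85, 3.94 and 4.49 TPM with vehicle. Alone among the 6 genes, it had every tributyrin library above every vehicle library, at 147% of the vehicle mean. Its level with ampicillin alone was 14.3% of the vehicle mean, the lowest share among the 6. The log2 differences were -1.68 ± 0.11 with ampicillin, the smallest fall of the 6, and 2.14 ± 0.11 with tributyrin, and the scale of log2(TPM + 1) understates changes this close to 0. In TPM the tributyrin mean was 10.3 times the ampicillin mean.

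Cox6b2 had 13.0, 14.7 and 16.4 TPM with tributyrin, 4.15, 5.46 and 3.81 TPM with ampicillin alone and 20.6, 19.3 and 16.2 TPM with vehicle. The ampicillin libraries stood below the rest, and the highest tributyrin library passed the lowest vehicle library. The log2 differences were -1.85 ± 0.13 with ampicillin and 1.52 ± 0.13 with tributyrin. With tributyrin the mean was 78.5% of the vehicle mean.

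Dtx3 had 41.5, 55.7 and 59.3 TPM with tributyrin, 5.12, 5.87 and 17.9 TPM with ampicillin alone and 57.4, 56.4 and 25.4 TPM with vehicle. Replicate 3 of ampicillin was the highest of its group and replicate 3 of vehicle the lowest of its group, so the 2 libraries lay between the others, though the groups did not overlap. Dtx3 therefore had the largest errors of the 6, with log2 differences of -2.27 ± 0.45 for ampicillin and 2.50 ± 0.45 for tributyrin. Without both of these libraries the differences were -3.16 and 3.02, a setting chosen after the values were seen. The difference between tributyrin and vehicle was 0.24 ± 0.45 with all libraries and -0.14 without vehicle replicate 3. Dtx3 was also the most abundant of the 6, at the percentile 69.9 of mean TPM among the genes tested, against 16.6 for Bex4 and Tmem35a.

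Ly6a had 8.81, 9.58 and 10.6 TPM with tributyrin, 2.75, 4.23 and 2.03 TPM with ampicillin alone and 15.0, 11.4 and 10.8 TPM with vehicle. Its highest tributyrin library was just below its lowest vehicle library, and the ampicillin libraries were below both. The log2 differences were -1.77 ± 0.19 with ampicillin and 1.45 ± 0.19 with tributyrin, and the tributyrin mean was 77.9% of the vehicle mean. Ly6a is 1 of a cluster of similar genes on chromosome 15, and reads that fit several of them may have been divided between them.

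**Figure D2:**
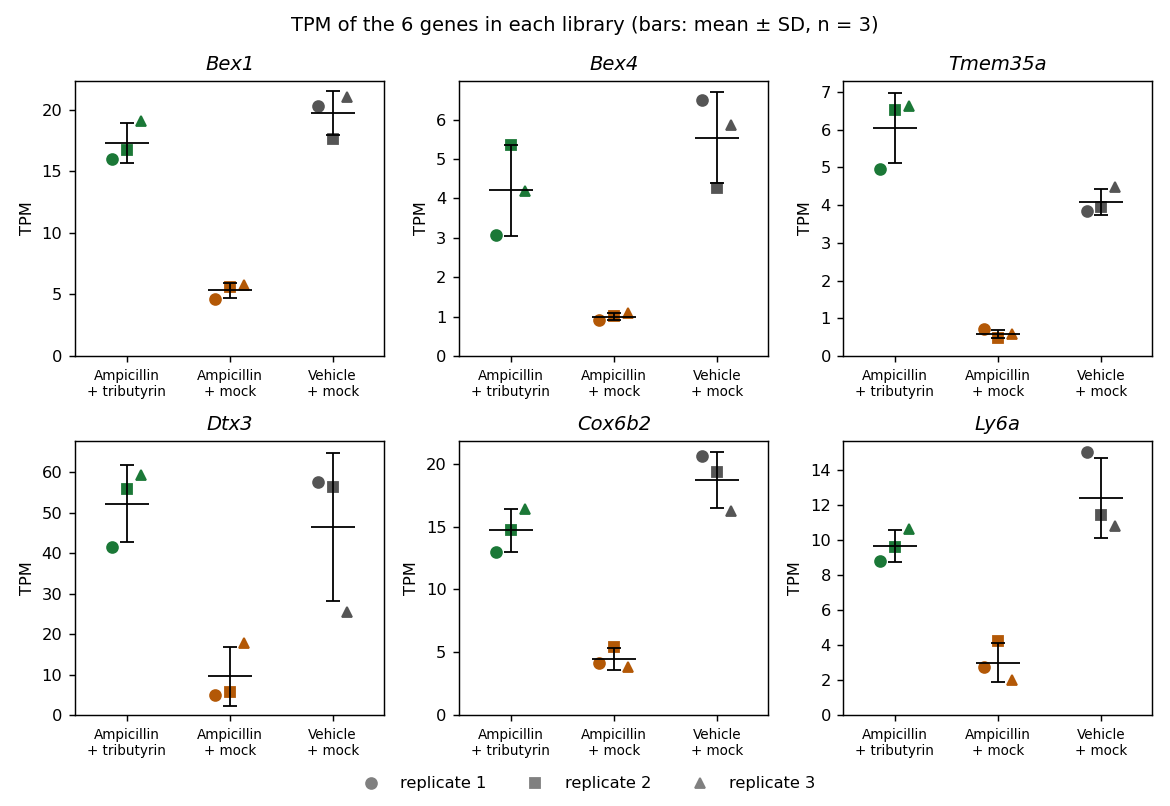
TPM of the 6 genes in each of 9 libraries (points, shaped by replicate number) with the mean and SD of each group of 3 (bars); columns run from ampicillin with tributyrin through ampicillin with mock gavage to vehicle with mock gavage. In each panel the 3 ampicillin libraries are the lowest, Tmem35a is higher with tributyrin (mean 6.04 TPM) than with vehicle (mean 4.09 TPM), and replicate 3 of ampicillin and of vehicle stand apart for Dtx3.

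All 6 genes were lower without overlap in ampicillin against vehicle libraries, as were 18.2% of the genes tested, and all 6 were higher without overlap in tributyrin against mock libraries, as were 27.3%. These counts follow from how the genes were chosen, and the 2 comparisons share the ampicillin libraries. Against vehicle, the tributyrin libraries of 4 genes overlapped, those of Tmem35a were higher and those of Ly6a lower, and among all genes tested 28.5% were higher and 13.2% lower without overlap. The spread of tributyrin against vehicle means ran from 75.9% for Bex4 to 147% for Tmem35a. Across the 9 libraries, which share the 3 group means, log2 levels of the 6 genes correlated in pairs at 0.808 (Dtx3 with Ly6a) to 0.990 (Cox6b2 with Ly6a). Bex1 and Bex4 correlated at 0.971.

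Both thresholds were passed by 68 of the 24091 rows, or 0.282%. Of these, 34 were short RNA entries, whose TPM values are unstable, and 31 were named protein-coding genes. The 25 of them other than the 6 genes were Adam15, Akr1b8, Bst2, Clic6, Cyp4f15, Dnm1, Emp2, Fads3, Fah, Fkbp11, Fmo1, Gstt1, Hist1h2an, Lgals2, Naaladl1, Pla2g3, Psmb8, Sat2, Sssca1, Tmem252, Tmem37, Tnni1, Unc93b1, Usp35 and Wfdc2. The entry H2-L, named for an MHC class I gene and without a RefSeq gene type, passed as well. Whether its reads came from related class I genes was not tested. Dnm1, the neuronal dynamin, and Tnni1, the slow skeletal muscle troponin I, are further genes best known from other tissues. Both were singled out, and the known tissues of the 25 were not surveyed. Among the genes just outside the threshold on the fall were Trp53i11 (-0.98) and Muc4 (-0.98), and just outside that on the rise were Mycbpap (0.99), Igsf23 (0.97) and Proc (0.93).

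Among the 12149 other genes tested, 229 correlated at 0.9 or more with the mean profile of the 6 genes over the 9 libraries. The 8 highest were Proc (0.992), Slc50a1 (0.988), Urah (0.988), Emp2 (0.987), Tfpi (0.985), Sdr42e1 (0.984), Blvrb (0.984) and Fads3 (0.983). Proc, the anticoagulant protein C precursor best known from liver, had 3.20, 4.08 and 3.93 TPM with tributyrin, 1.47, 1.54 and 1.44 TPM with ampicillin alone and 4.10, 3.74 and 4.22 TPM with vehicle. Tfpi, the inhibitor of the tissue factor pathway of clotting, had 2.30 ± 0.319 TPM with tributyrin, 0.939 ± 0.164 TPM with ampicillin alone and 2.61 ± 0.149 TPM with vehicle. Slc50a1, a sugar transporter, was also lowest with ampicillin alone, by a smaller step, at 53.0 ± 3.08, 37.4 ± 0.670 and 52.7 ± 0.663 TPM in the same order of groups (SD, n = 3 each). Emp2, a membrane protein, and Fads3, a fatty acid desaturase, also passed both thresholds, and Urah and Blvrb are enzymes of urate breakdown and of haem breakdown. These genes were picked for their likeness, so no test is given.

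The relatives and neighbours of Bex1 and Bex4 had smaller differences, which follows in part from the choice of Bex1 and Bex4 for large ones. The relatives include the TCEAL genes, named for their likeness to a transcription elongation factor, and the ARMCX genes, which carry armadillo repeats. With Bhlhb9, Gprasp1 and Gprasp2, which resemble the ARMCX genes, the list held 19 other genes, of which 10 were expressed enough to test. All 10 are on the X chromosome, and Bex6, which was too low to test, is on chromosome 16. With ampicillin 4 fell and 1 rose, beside 10.2% lower and 11.0% higher of all genes tested, and their median log2 difference was -0.29 against 0.02 for all genes. With tributyrin 3 rose and none fell, beside 15.6% higher and 7.54% lower of all genes, with a median of 0.29 against 0.05. Under quantile normalization the background for tributyrin was 12.1% higher and 13.5% lower. Bex3, an adaptor of the p75 neurotrophin receptor, had 61.3, 69.9 and 61.9 TPM with tributyrin, 36.2, 33.6 and 34.5 TPM with ampicillin alone and 50.2, 47.1 and 42.6 TPM with vehicle. It fell by 0.41 ± 0.07 on the log2 scale with ampicillin (adjusted p = 0.00543) and rose by 0.87 ± 0.07 with tributyrin (adjusted p = 0.000425), and its tributyrin libraries were all above those of vehicle. On the TPM scale Bex3 was more abundant than Bex1 in each group.

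Tceal8, which lies between Bex4 and Bex1, had 9.51 ± 1.01 TPM with tributyrin, 5.10 ± 0.613 TPM with ampicillin alone and 6.88 ± 0.453 TPM with vehicle. It rose with tributyrin (log2 difference 0.78 ± 0.10, adjusted p = 0.00148) and fell with ampicillin (-0.37 ± 0.10, adjusted p = 0.0286). The fall lost its call without ampicillin replicate 1 (adjusted p = 0.0849) or 3 (0.0560) or vehicle replicate 1 (0.0852) or 2 (0.0774). Armcx3, a mitochondrial outer membrane protein, fell with ampicillin (-0.59 ± 0.11, adjusted p = 0.00649). Tceal1 also fell (-0.53 ± 0.14, adjusted p = 0.0277), a call lost without any 1 of the ampicillin or vehicle libraries (adjusted p from 0.0506 to 0.0930). Bhlhb9 rose with tributyrin (0.67 ± 0.11, adjusted p = 0.00444). Bex2, 70760 bases before Bex4, went the other way with ampicillin (0.54 ± 0.15, adjusted p = 0.0376), a call lost without tributyrin replicate 1 or 3, ampicillin replicate 1 or 2 or vehicle replicate 2 or 3 (adjusted p from 0.0503 to 0.109). The count of 4 that fell was 2 without ampicillin replicate 1 or without vehicle replicate 1. Tceal9, the other neighbour of Bex1, had 148 ± 14.3, 120.4 ± 14.1 and 141 ± 6.28 TPM in the same order of groups and passed neither test (adjusted p = 0.125 with ampicillin and 0.0507 with tributyrin). Of the 9 too low to test, Bex6, Tceal3, Tceal5 and Tceal7 stayed under 0.13 TPM and Tceal6 was listed at 0.

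**Figure D3:**
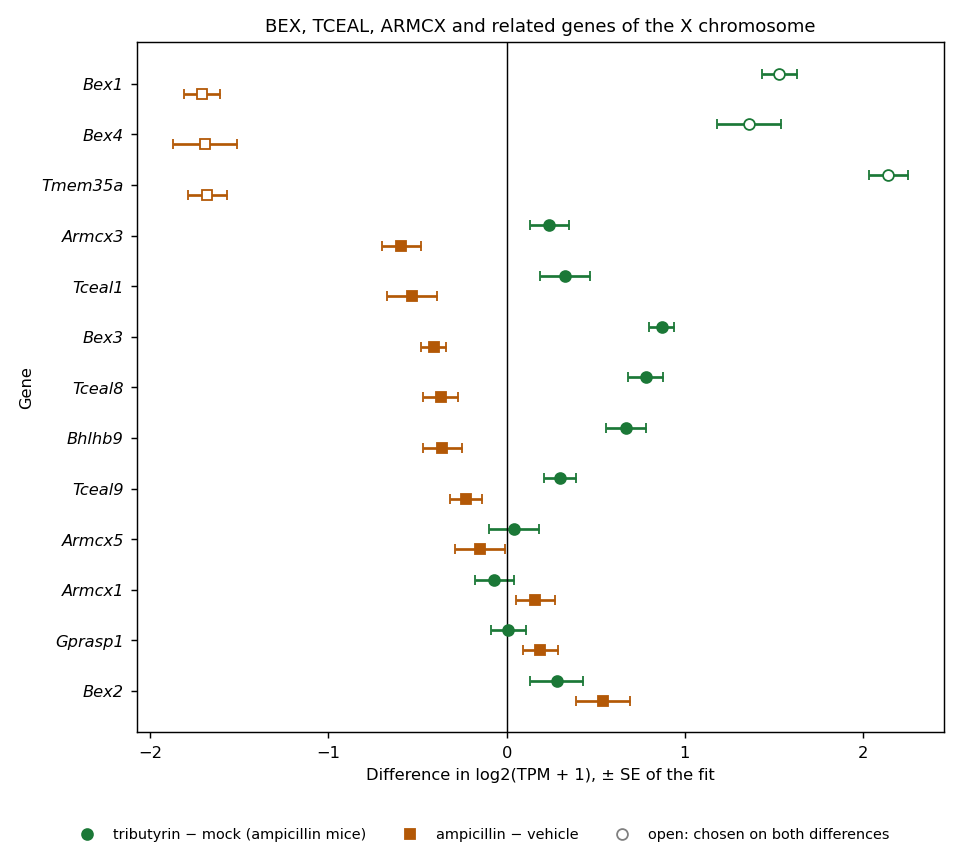
Differences in log2(TPM + 1), ± SE, of tributyrin minus mock gavage among ampicillin mice (green circles) and of ampicillin minus vehicle (orange squares) for Bex1, Bex4 and Tmem35a (open symbols, chosen on both differences) and the 10 tested BEX, TCEAL, ARMCX and related genes (filled), with Gprasp1 and Bhlhb9 as the related ones. Bex3 and Tceal8 moved in the directions of Bex1 by less (tributyrin 0.87 and 0.78, against 1.53 for Bex1), and Bex2 was 0.54 higher with ampicillin.

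The genes beside Tmem35a did not pass either test. Cenpi, a centromere protein gene 2115 bases away, had log2 differences of 0.13 ± 0.10 with ampicillin (adjusted p = 0.424) and 0.18 ± 0.10 with tributyrin (adjusted p = 0.223). Trmt2b, on the other side, had 0.11 ± 0.07 and -0.06 ± 0.07 (adjusted p = 0.276 and 0.573). Tmem35b, the namesake of Tmem35a elsewhere in the genome, stayed between 12.9 and 16.4 TPM in all 9 libraries (adjusted p = 0.981 with ampicillin and 0.868 with tributyrin). Of 21 genes for nicotinic receptor subunits and their other chaperones, 4 could be tested. Chrnb4, a receptor subunit, fell with ampicillin (-0.59 ± 0.12, adjusted p = 0.00931) and rose with tributyrin (0.58 ± 0.12, adjusted p = 0.0111), at 1.13, 1.33 and 1.26 TPM with tributyrin, 0.477, 0.648 and 0.385 TPM with ampicillin alone and 1.27, 1.51 and 1.02 TPM with vehicle. It sits at the 1 TPM minimum and dropped out of the test without vehicle replicate 1 or 2 or any tributyrin replicate. Chrna7, the subunit of the homomeric receptor that Tmem35a is best known to assemble, did not pass 0.0155 TPM in any library. Ric3, another chaperone of these receptors, did not pass 0.303 TPM.

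The genes beside Dtx3 passed neither test. Pip4k2c, a lipid kinase gene 569 bases away, had 40.9 ± 2.77 TPM with tributyrin, 46.6 ± 0.751 TPM with ampicillin alone and 47.2 ± 2.71 TPM with vehicle (adjusted p = 0.888 with ampicillin and 0.0578 with tributyrin). Slc26a10, 9668 bases away on the other side, stayed between 0.793 and 1.59 TPM (adjusted p = 0.728 and 0.135). Of 21 other tested Deltex and Notch pathway genes, 4 fell and 2 rose with ampicillin (median -0.00), beside 10.2% lower and 11.0% higher of all genes, and 4 rose and none fell with tributyrin (median 0.15), beside 15.6% higher and 7.54% lower. Dtx3l, a Deltex ligase that pairs with Parp9, had 7.57, 7.81 and 7.60 TPM with tributyrin, 5.51, 5.96 and 5.77 TPM with ampicillin alone and 8.41, 12.3 and 11.0 TPM with vehicle. It fell with ampicillin (-0.77 ± 0.11, adjusted p = 0.00199), as did Parp9 (-0.50 ± 0.11, adjusted p = 0.0110), and with tributyrin Dtx3l had a difference of 0.36 ± 0.11 (adjusted p = 0.0506). Dtx2 and Dtx4 passed neither test, with differences between -0.02 and 0.28, and Dtx1 did not pass 1.82 TPM. Jag2, a Notch ligand, rose with tributyrin (0.64 ± 0.11, adjusted p = 0.00560). The counts of this list that rose were unsteady: with ampicillin 0 rose without ampicillin replicate 2 or 3 and 1 without tributyrin replicate 2, ampicillin replicate 1 or vehicle replicate 1 or 3, and with tributyrin 2 rose without tributyrin replicate 1 or 2.

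Cox6b1, the body-wide counterpart of Cox6b2, passed neither test. It had 1830.3, 1740.3 and 2087 TPM with tributyrin, 1833, 1904 and 2069 TPM with ampicillin alone and 1860.4, 1710.0 and 1922 TPM with vehicle (log2 differences 0.08 ± 0.08 with ampicillin and -0.04 ± 0.08 with tributyrin, adjusted p = 0.544 and 0.765). On the TPM scale the Cox6b2 level was far below it in each group. Of the 22 other tested subunits and assembly factors of the enzyme, 1 fell and 4 rose with ampicillin (median 0.07), beside 10.2% and 11.0% of all genes, and 3 fell and 1 rose with tributyrin (median -0.08), beside 7.54% and 15.6%. The 3 that fell were 1 without tributyrin replicate 2, any ampicillin replicate or vehicle replicate 3. Cox7a1, the isoform of heart and skeletal muscle, was the 1 that moved with Cox6b2, at 355, 323 and 409 TPM with tributyrin, 260.1, 271 and 249 TPM with ampicillin alone and 765, 638 and 677 TPM with vehicle. It fell with ampicillin (-1.41 ± 0.10, adjusted p = 4.17e-05) and rose with tributyrin (0.47 ± 0.10, adjusted p = 0.0100), staying below vehicle. Other isoforms restricted to muscle or testis were at or near 0, with Cox8c listed at 0 and Cox6a2, Cox8b and Cox7b2 under 0.3 TPM. Kmt5c, 4278 bases from Cox6b2, stayed between 39.0 and 45.0 TPM and passed neither test. Tmem190, 29455 bases away on the other side, had 2.17 ± 0.487 TPM with tributyrin, 3.19 ± 0.332 TPM with ampicillin alone and 1.85 ± 0.325 TPM with vehicle. It rose with ampicillin (0.56 ± 0.13, adjusted p = 0.0189), a call lost without ampicillin replicate 1 or 3 or vehicle replicate 1 or 3 (adjusted p from 0.0625 to 0.0676), and had a difference of -0.41 ± 0.13 with tributyrin (adjusted p = 0.0565).

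Other testis genes were mostly too low to test. Of 28 germ cell genes other than Cox6b2, 10 were listed at 0 in all libraries, and 2 passed the minimum. Tdrd1, a Tudor protein of germ cells, had 1.99, 2.86 and 2.94 TPM with tributyrin, 1.83, 1.64 and 1.49 TPM with ampicillin alone and 3.06, 2.83 and 2.57 TPM with vehicle (ampicillin -0.53 ± 0.12, adjusted p = 0.0160, and tributyrin 0.43 ± 0.12, adjusted p = 0.0352). The call of its fall was lost without ampicillin replicate 2 or 3 or vehicle replicate 1, and that of its rise without tributyrin replicate 2 or 3 or any ampicillin replicate, and under quantile normalization (adjusted p = 0.225). Sycp3, of the synaptonemal complex, passed neither test.

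Several relatives of Ly6a had differences of the same sign. Of 33 other LY6 and uPAR family genes in the table, 8 could be tested. With ampicillin 4 fell and none rose (median -0.16), and with tributyrin 5 rose and none fell (median 0.41), against medians of 0.02 and 0.05 for all genes, of which 10.2% fell with ampicillin and 15.6% rose with tributyrin. Ly6e, an interferon-inducible surface protein and the nearest tested gene to Ly6a on 1 side, had 42.6, 43.7 and 40.4 TPM with tributyrin, 31.4, 33.6 and 26.2 TPM with ampicillin alone and 73.1, 58.4 and 58.7 TPM with vehicle. It fell with ampicillin (-1.04 ± 0.11, adjusted p = 0.000387) and rose with tributyrin (0.47 ± 0.11, adjusted p = 0.0176), a rise not called without tributyrin replicate 2 (adjusted p = 0.0631). On the other side the nearest tested gene was Zfp41, 617169 bases away, which fell with ampicillin (-0.32 ± 0.09, adjusted p = 0.0277) and rose with tributyrin (0.37 ± 0.09, adjusted p = 0.0166). Its fall was not called without any 1 ampicillin library or vehicle replicate 2 or 3 (adjusted p from 0.0630 to 0.0969), and its rise not without tributyrin replicate 2 or ampicillin replicate 1 or 2 (0.0572 to 0.0621) or under quantile normalization (0.0963). Ly6g6c, from another cluster, fell with ampicillin (-1.36 ± 0.21, adjusted p = 0.00246) and rose with tributyrin (0.89 ± 0.21, adjusted p = 0.0185), a rise not called without tributyrin replicate 2 (adjusted p = 0.0608) or ampicillin replicate 3 (adjusted p = 0.0599). The count of 5 that rose was 3 without tributyrin replicate 2.

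Cd59b, an inhibitor of complement, had 39.8, 39.5 and 36.8 TPM with tributyrin, 26.4, 26.2 and 27.9 TPM with ampicillin alone and 33.1, 33.2 and 35.3 TPM with vehicle. It fell with ampicillin (-0.33 ± 0.05, adjusted p = 0.00268) and rose with tributyrin (0.51 ± 0.05, adjusted p = 0.000601). Ly6g6d rose with tributyrin (0.50 ± 0.09, adjusted p = 0.00672) after no call with ampicillin (0.04 ± 0.09, adjusted p = 0.787). Ly6g6e rose with tributyrin as well (0.35 ± 0.07, adjusted p = 0.00919). It was also among the 4 genes of this family that fell with ampicillin. That call was lost without ampicillin replicate 2 (adjusted p = 0.0696) or 3 (0.0740) or vehicle replicate 1 (0.0637). Lypd8, which keeps bacteria away from the colonic surface, was the most abundant member, at 4058 to 4906 TPM in the 9 libraries, and passed neither test (adjusted p = 0.704 and 0.906). Ly6c1 did not pass 0.355 TPM, and Ly6d did not pass 0.585 TPM.

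**Figure D4:**
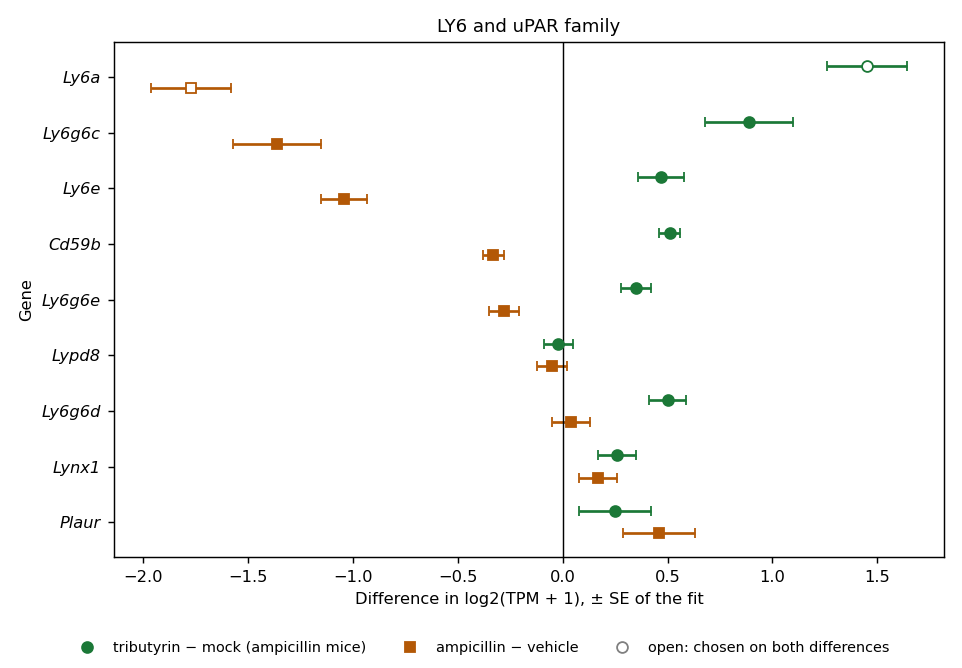
Differences in log2(TPM + 1), ± SE, of tributyrin minus mock gavage among ampicillin mice (green circles) and of ampicillin minus vehicle (orange squares) for Ly6a (open symbols, chosen on both differences) and the 8 tested LY6 and uPAR family genes (filled). Ly6g6c and Ly6e have the largest falls after Ly6a (-1.36 and -1.04), while Lypd8 lies at -0.05 and -0.02.

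Genes that interferon induces, the group in which Ly6a is often counted, fell with ampicillin in 20 of 30 tested members and rose in 1, with a median log2 difference of -0.70, beside 10.2% lower and 11.0% higher of all genes. With tributyrin 10 rose and none fell, with a median of 0.23, beside 15.6% higher and 7.54% lower. Psmb8, a subunit of the immunoproteasome that also passed both thresholds, had 16.1, 15.8 and 16.6 TPM with tributyrin, 6.37, 7.81 and 7.37 TPM with ampicillin alone and 20.9, 19.1 and 24.2 TPM with vehicle. Bst2, or tetherin, had 19.1, 17.8 and 17.5 TPM with tributyrin, 9.47, 6.94 and 7.08 TPM with ampicillin alone and 17.5, 19.6 and 20.0 TPM with vehicle. Oas3, an antiviral enzyme, fell by 2.23 ± 0.17 on the log2 scale with ampicillin (adjusted p = 6.31e-05) and had a difference of 0.11 ± 0.17 with tributyrin (adjusted p = 0.662). With tributyrin Psmb9, a further immunoproteasome subunit, rose by 0.83 ± 0.10 (adjusted p = 0.00143), and Rtp4, a chaperone of membrane receptors, had a difference of 0.13 ± 0.26 (adjusted p = 0.762). The count of 10 that rose was 6 without tributyrin replicate 2 or ampicillin replicate 3, and the count of 20 that fell was 9 without replicate 3 of both ampicillin and vehicle.

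Ly6a is also counted among genes of the fetal-like state that intestinal epithelium takes on in repair. Of 14 tested genes of that state other than Ly6a, 3 fell and 5 rose with ampicillin (median 0.21), beside 10.2% and 11.0% of all genes, and Krt7 rose and F3 fell with tributyrin (median 0.14), beside 15.6% and 7.54%. The 3 that fell with ampicillin were 1 without ampicillin replicate 1 or 2 and under quantile normalization. The fall of F3 with tributyrin was not called without any 1 tributyrin or ampicillin replicate or without vehicle replicate 1 (adjusted p from 0.0503 to 0.150). Those with the greatest differences rose with ampicillin, opposite to Ly6a, among them Anxa1 (1.73 ± 0.24, adjusted p = 0.00158), F3 (1.36 ± 0.11, adjusted p = 9.86e-05) and Il1rn (1.26 ± 0.21, adjusted p = 0.00385). Anxa1, an anti-inflammatory annexin, had 44.1 ± 1.04 TPM with tributyrin, 51.4 ± 2.28 TPM with ampicillin alone and 15.8 ± 7.53 TPM with vehicle (SD, n = 3 each).

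Markers of the cells in which these genes are best known were set beside them. All 15 markers of enteric neurons were under 1 TPM in each library, with Gap43 and Vip among those listed at 0, and their summed level was 1.68 to 1.97 TPM with tributyrin, 1.24 to 1.58 TPM with ampicillin alone and 0.909 to 1.17 TPM with vehicle. The part of enteric neurons in the levels of the 6 genes was not tested. Of 9 markers of enteric glia 8 were under 1 TPM, with Sox10 and Cdh19 listed at 0. Enteroendocrine markers summed to 243 to 317 TPM with tributyrin, 244 to 264 TPM with ampicillin alone and 289 to 398 TPM with vehicle, with 3 of 16 tested genes lower and 4 higher with ampicillin, beside 10.2% and 11.0% of all genes. Of 6 tested neuronal genes commonly repressed by REST, none was called with ampicillin, beside 10.2% lower and 11.0% higher of all genes. With tributyrin 1 rose and 1 fell, beside 15.6% and 7.54%, and 6 genes are too few to set against these shares. Rest itself had 2.45 ± 0.271 TPM with tributyrin, 2.49 ± 0.150 TPM with ampicillin alone and 2.43 ± 0.459 TPM with vehicle. Of 12 tested genes of the REST complex 3 rose and none fell with ampicillin, beside 11.0% higher and 10.2% lower of all genes. With tributyrin 4 rose and 3 fell, beside 15.6% higher and 7.54% lower. With 1 library left out, these counts went as low as 0, 2 and 1 for the rise with ampicillin and the rise and fall with tributyrin.

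Of 12 endothelial markers, 3 could be tested. The 12 summed to 6.96 to 9.03 TPM with tributyrin, 3.11 to 3.50 TPM with ampicillin alone and 7.01 to 8.40 TPM with vehicle, and 9 of them were under 1 TPM in each library, with the defining Cdh5 and Kdr at most 0.00973 and 0.0376 TPM. The 3 tested were Pecam1, Esam and Egfl7. Pecam1 and Esam fell with ampicillin, beside 10.2% of all genes, and all 3 rose with tributyrin, beside 15.6%. The part of endothelium in the level of Ly6a was not tested. The fall of Esam was not called without ampicillin replicate 1 (adjusted p = 0.0587) or 3 (0.0552) or vehicle replicate 3 (0.0631). Pecam1 had 1.11, 1.66 and 1.38 TPM with tributyrin, 0.511, 0.636 and 0.611 TPM with ampicillin alone and 3.53, 3.82 and 4.03 TPM with vehicle. T cell and intraepithelial lymphocyte markers summed to 54.6 to 97.5 TPM with tributyrin, 27.6 to 49.6 TPM with ampicillin alone and 38.5 to 43.7 TPM with vehicle, with none of 11 called with ampicillin and 5 higher with tributyrin, beside 15.6% of all genes. That last count was 1 without tributyrin replicate 2 or ampicillin replicate 1 or 2, 2 without tributyrin replicate 1 and 9 without tributyrin replicate 3. Haemoglobin and other erythroid transcripts summed to 94.4 to 134 TPM with tributyrin, 13.4 to 36.6 TPM with ampicillin alone and 8.35 to 25.4 TPM with vehicle. The part of lymphocytes and of blood in the levels of the 6 genes was not tested. General epithelial markers summed to 15625 to 15969 TPM with tributyrin, 14302 to 15442 TPM with ampicillin alone and 16134 to 18133 TPM with vehicle. Of these 10 genes 6 fell with ampicillin, beside 10.2% of all genes, among them Krt8 (-0.40, adjusted p = 0.00707) and Epcam (-0.24, adjusted p = 0.00907). With tributyrin 2 rose, beside 15.6%. Of 14 goblet cell markers 7 fell with ampicillin, with Retnlb the furthest (-1.67, adjusted p = 8.85e-05). Of 13 tested crypt stem cell markers 5 fell, among them Lgr5 (-0.65, adjusted p = 0.00597). Of 15 tested absorptive colonocyte markers 5 fell and 4 rose with ampicillin (median -0.01). These counts stand beside 10.2% lower and 11.0% higher of all genes. Without replicate 3 of both ampicillin and vehicle, 2 of the general epithelial, 6 of the goblet and 1 of the crypt stem cell markers fell. The part of epithelial cell makeup in the levels of the 6 genes was not tested.

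Of 13 tested genes commonly raised by deacetylase inhibition, 3 rose and 2 fell with tributyrin (median 0.11), beside 15.6% and 7.54% of all genes, and 5 rose and 2 fell with ampicillin (median 0.33), beside 11.0% and 10.2%. The 3 that rose with tributyrin were 1 without tributyrin replicate 2 or 3 or ampicillin replicate 1 or 3 and under quantile normalization. Xist, the RNA that coats the inactive X chromosome, had 33.8, 28.8 and 24.7 TPM with tributyrin, 19.2, 25.5 and 29.0 TPM with ampicillin alone and 22.0, 20.9 and 22.5 TPM with vehicle, with overlap between groups, and no Y-linked marker reached 1 TPM. The part of sex in the levels of the X-linked genes was not tested. Reads from another annotated gene could enter the values of Bex1, Bex4, Dtx3 and Ly6a, each of which overlaps such a gene. The strands of the overlapping genes were not compared, and the strand setting of the quantification is not known here. Nxf3, which shares 584 bases with Bex4, was listed at 0 in all 9 libraries. The other overlapping genes share 559 bases with Bex1, 1250 with Dtx3 and 3155 with Ly6a, its whole length. Their levels are not given here. The short entry Mir6236 took 0.705% to 0.862% of all TPM with tributyrin, 1.24% to 4.04% with ampicillin alone and 2.14% to 4.48% with vehicle, and with short RNA removed and TPM rescaled all 6 genes still passed both thresholds.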

How the data were processed

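Per the labels' protocols, RNeasy kits gave the RNA and NEBNext Ultra II kits the libraries. The authors deposited TPM values per gene and library. The submitters' processing notes name Salmon 0.8.2, DESeq2 1.20.0 and mm10, with no roles stated. The annotation, filters and strand setting were not stated in the labels. TPM keeps no depth, so no counting error could be given.

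Values were taken as log2(TPM + 1). Genes with a mean of at least 1 TPM were kept, 12155 of 24091. limma 3.58.1 (R 4.3.3) fitted all 9 libraries at once, with a mean for each group, moderated variances and a trend. Calls are at a Benjamini-Hochberg adjusted p under 0.05 over all genes tested, two-sided. An exact permutation test of 3 against 3 libraries cannot go below 0.1.

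Named genes are the 6 chosen genes, their measured relatives and nearest tested neighbours, the called list members with the largest differences, rows that pass both thresholds or lie just outside, and the 8 most alike genes. The neighbours, Rest and its complex, the general epithelial, goblet, crypt and absorptive colonocyte markers and the receptor and isoform genes given as silent were added after values were seen. Genes and lists were chosen with earlier results of these data known. IDs of 24045 of 24091 genes matched RefSeq (GRCm38.p6), the source of positions and sequences. The fit was tested on simulated data. Plots used matplotlib 3.10.9 and Python 3.11.15.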

Additional observations from a re-analysis of the deposited data

How the results depend on the processing

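All 6 genes passed both thresholds in each alternative run for the thresholds. With each library left out in turn, calls ranged from 1747 to 2785 for ampicillin against vehicle (2587 with all libraries), from 1574 to 2962 for tributyrin against mock (2819) and from 2061 to 3766 for tributyrin against vehicle (3444). Calls among 64 relatives and pathway genes ranged from 14 to 19 (21), 10 to 17 (17) and 10 to 16 (17) in the same comparisons. Of all genes tested, 10.2% were called lower and 11.0% higher for ampicillin against vehicle with all libraries. The shares were 7.54% and 15.6% for tributyrin against mock and 9.21% and 19.1% for tributyrin against vehicle. Without replicate 3 of both vehicle and ampicillin, chosen after the Dtx3 values were seen, calls were 1090, 1516 and 1896, those among relatives 8, 9 and 11, and the Dtx3 difference with ampicillin was -3.16. This setting has fewer samples. Array weights gave 4271 calls for tributyrin against mock.

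A pseudocount of 0.1 gave log2 differences of -1.87 with ampicillin and 1.68 with tributyrin for Bex1, -2.34 and 1.94 for Bex4 and -2.62 and 3.16 for Tmem35a, and -2.05 with ampicillin for Cox6b2 and -2.06 for Ly6a, since a smaller pseudocount compresses low values less. Rows that pass both thresholds numbered 205 at that pseudocount and 68 as reported. Rescaling TPM without short RNA removes the short RNA rows, and 35 rows then passed, beside 34 of the 68 that were not short RNA.

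Deviations of same-numbered libraries from their group means correlated at -0.050 to 0.108, and those of differently numbered libraries at -0.117 to 0.075. The highest values were from same-numbered libraries (0.108, 0.092 and 0.086), though not every library correlated best with its own number. Correlations this weak cannot decide whether same-numbered libraries share a batch or a pairing. Quantile normalization gave 1642 lower and 1476 higher genes for tributyrin against mock, beside 917 and 1902 as reported, and 1641 and 1689 for tributyrin against vehicle, beside 1119 and 2325. The replicate block, a fit with a term for replicate number, gave 2707, 3009 and 3569 calls, beside 2587, 2819 and 3444 without it. TPM keeps no depth, which limits what can be said of genes near 0.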
